A study of Mus musculus with 6 samples.

Results

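The 38 genes described here encode the smooth muscle contractile apparatus, its regulators and the cytoskeletal and adhesion proteins that actin filaments pull on. They were chosen by name, as the rows of the deposited table whose gene symbol equals one of 38 symbols, and all 38 were found among the 55426 genes of the table. RNA came from the abdominal aorta of male mice on a C57BL/6J background. *Prdm16* SMKO mice carried *Prdm16* fl/fl alleles and *Myh11*-CreERT2, a Cre recombinase on the Y chromosome that is made in cells expressing *Myh11* and needs tamoxifen to act. Control mice were called wild-type in one place of the study and carriers of *Myh11*-CreERT2 in another, and their labels say only control. Tamoxifen was given by gavage at 75 mg/kg/day for 5 days at 8 to 10 weeks of age, as stated for the mice in general. Mice were stated to be used 2 weeks after tamoxifen, and no separate time is given for the collection of these aortas. There were 3 libraries in each group. The labels do not say whether each library came from a single animal, so p-values measure the spread between these libraries, which may be technical.

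Smooth muscle contracts when calcium activates myosin light chain kinase, which phosphorylates the regulatory light chain of myosin and lets the myosin heads pull on actin. Myosin phosphatase reverses this step, and RhoA with its kinases holds the phosphatase back. Most genes of the contractile program are driven by serum response factor (SRF), which binds a short DNA element called the CArG box and is strengthened by its partner myocardin, a protein made in cardiac and smooth muscle.

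The CArG box is shown because it is the element that the regulators among the 38 genes act through. Promoter windows of RefSeq on GRCm38.p6, from 250 bases before to 50 bases after a transcription start, were held for 32 of the 38 genes, with no window for *Actg2*, *Myh11*, *Myocd*, *Nexn*, *Rock1* and *Tagln*. An exact CArG box, which reads the same way on both strands as a pattern, stood in the windows of 7 of these 32 genes (21.9%), against 175 of 10861 tested genes with a window (1.61%) and 488 of all 27025 genes with one (1.81%). Each sequence runs 5′ to 3′ on the strand of its gene, with 15 bases on either side of the box and the box in capitals.
Cnn2, chr10:79988529-79988568, plus strand: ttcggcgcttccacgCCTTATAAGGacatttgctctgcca
Filip1l, chr16:57549165-57549204, plus strand: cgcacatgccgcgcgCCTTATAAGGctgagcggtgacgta
Ldb3, chr14:34588692-34588731, minus strand: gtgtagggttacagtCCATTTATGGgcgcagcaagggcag
Myl6, chr10:128493035-128493074, minus strand: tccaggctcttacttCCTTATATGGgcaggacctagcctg
Myl9, chr2:156775288-156775327, plus strand: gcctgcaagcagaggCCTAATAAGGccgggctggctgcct
Srf, chr17:46556200-46556259, minus strand: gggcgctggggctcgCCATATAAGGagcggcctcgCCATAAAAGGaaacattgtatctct
Vcl, chr14:20929156-20929195, plus strand: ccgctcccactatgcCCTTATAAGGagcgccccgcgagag
*Cnn2*, *Filip1l* and *Vcl* shared the same 10 letters, and *Srf* held 2 boxes in its own promoter. A match describes these letters in these windows and does not show that a factor bound there.

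Abundance was measured as TPM, a share of all transcripts that corrects for transcript length, so that levels can be compared between genes. It keeps no record of reads, so the depth of each library is unknown beyond a stated average of 40 M read pairs of 151 bp. Between 20332 and 22100 genes were above 0 in a library, mitochondrial transcripts took 15.8% to 27.4% of the TPM and those of the 45S ribosomal RNA locus a further 15.6% to 31.4%, and every gene's TPM moves with these shares. The targeted gene *Prdm16* (chr4:154316125-154636873, GRCm38) averaged 33.7 ± 3.04 TPM (SD, n = 3) in controls against 21.1 ± 6.46 TPM (SD, n = 3) in *Prdm16* SMKO mice, without overlap, and its log2 fold change of −0.70 was not called (limma, Benjamini-Hochberg adjusted p = 0.376).

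In control aortas these genes were among the most abundant transcripts. Ranked by control mean among the 15775 genes tested, those with a mean of at least 0.5 TPM over the 6 libraries, 15 of the 38 stood in the top 100, 30 in the top 500 and 33 in the top 1000. *Acta2*, smooth muscle α-actin, led with 9269 ± 3275 TPM (SD, n = 3) at rank 11, followed by the light chain *Myl6* at 6618 ± 802 TPM, the actin-binding *Tagln* at 4547 ± 845 TPM and the regulatory light chain *Myl9* at 3710 ± 693 TPM. The lowest was *Ldb3*, a PDZ and LIM protein of the striated Z-disc, at 44.1 ± 9.79 TPM and rank 1945. Neighbours in this order overlapped between control libraries in 34 of 37 cases, and the breaks lay between *Myl6* and *Tagln*, *Actn1* and *Ppp1r14a*, and *Rock2* and *Ldb3*. The coefficient of variation in control ran from 9.23% in *Nexn* to 35.8% in *Myh11*, with a median of 21.9%, and from 6.61% to 28.3% in *Prdm16* SMKO. All 7 VSMC markers checked (*Acta2*, *Myh11*, *Tagln*, *Cnn1*, *Lmod1*, *Smtn* and *Myocd*) were above 0 in every library.

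None of the 38 genes passed an adjusted p under 0.05 in the comparison of the groups (limma on log2(TPM + 0.5), Benjamini-Hochberg over 15775 genes), where 56 genes (0.355%) were called in all. The smallest adjusted p among the members was 0.235, for *Actg2*. An unadjusted p under 0.05 was reached by 7 of 38 (8.74% of all genes tested), of which *Actg2*, *Pdlim3* and *Des* were higher (4.88% of all genes) and *Csrp1*, *Cnn2*, *Smtn* and *Cnn1* lower (3.85%) in *Prdm16* SMKO mice. The 2 groups did not overlap in 6 of 38 members (12.8% of all genes tested), where *Actg2* and *Pdlim3* were higher (7.02% of all genes) and *Csrp1*, *Cnn1*, *Cnn2* and *Srf* were lower (5.76%). The log2 fold change was below 0 in 32 of 38 members (45.8% of all genes tested), the median being −0.24 and the range −0.61 to 0.87, while the median over all genes tested was 0.02. In RNA of a whole vessel, fewer smooth muscle cells and less of these transcripts per cell cannot be told apart.

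**Figure D1:**
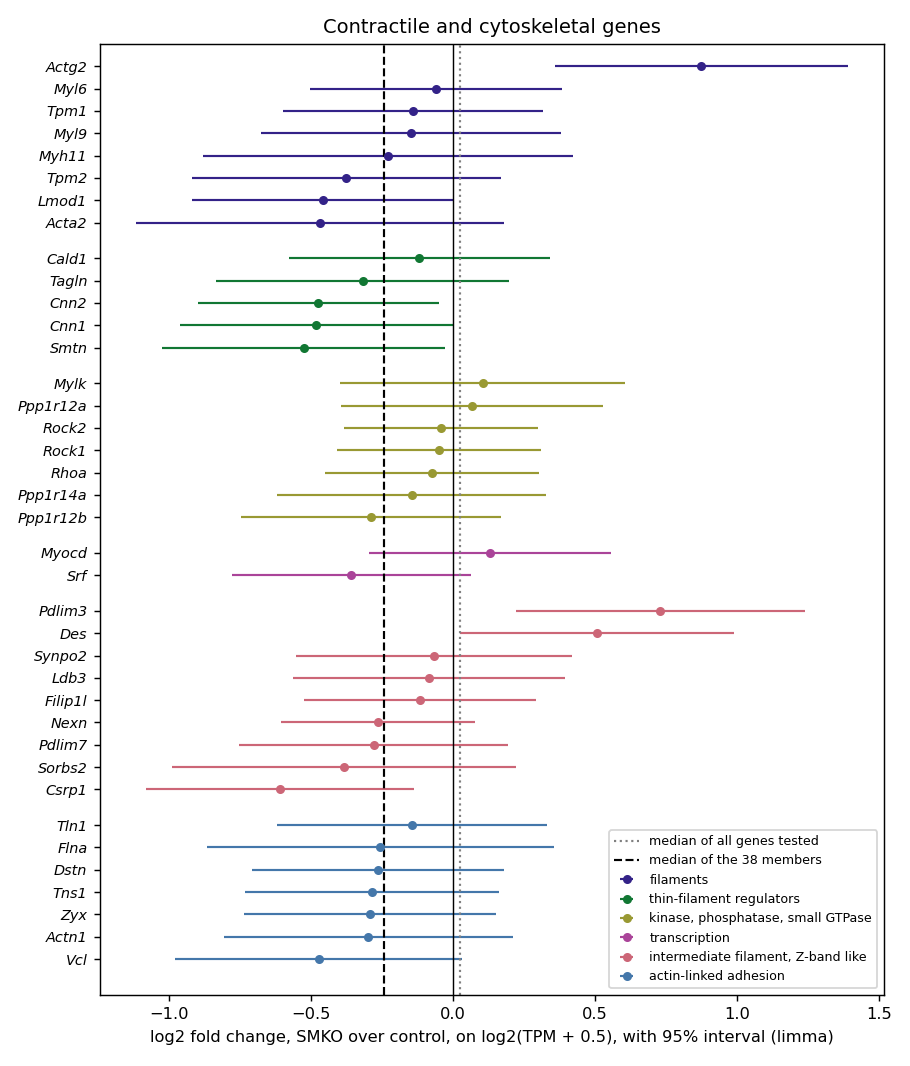
Log2 fold change of each of the 38 genes, Prdm16 SMKO over control, on the log2(TPM + 0.5) scale (horizontal axis), with 95% intervals from limma as lines and the genes grouped and coloured by role. Most points lie left of 0, around the dashed median of −0.24 of the 38 genes, and *Actg2* (0.87), *Pdlim3* (0.73) and *Des* (0.51) lie apart to the right.

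How many members lay below 0 depended on 2 libraries. Control replicate 2 was the highest control library in 38 of 38 members (63.5% of all genes tested) and the highest of all 6 libraries in 33 members, or 86.8% (35.2% of all genes tested). *Prdm16* SMKO replicate 3 was the lowest of its group in 38 of 38 (53.8% of all genes tested). The members' median log2 deviation from each gene's own mean was 0.04, 0.44 and −0.13 in control replicates 1, 2 and 3 and 0.08, −0.06 and −0.34 in *Prdm16* SMKO replicates 1, 2 and 3. So control replicates 1 and 3 lay within the span of the *Prdm16* SMKO libraries in TPM as deposited. With median-of-ratios size factors, the medians were 0.03, 0.27 and 0.08 in control and 0.01, −0.11 and −0.24 in *Prdm16* SMKO mice. Every control median then lay above every *Prdm16* SMKO median, by a small margin for replicate 1 of each group.

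In TPM as deposited, the sum of the 38 genes put the libraries in the same order as the members' medians. It was 43107, 58881 and 38143 TPM in control and 46308, 38249 and 32232 TPM in *Prdm16* SMKO mice, for replicates 1, 2 and 3. Over all genes tested, the median deviation was 0.01, 0.16 and −0.20 in control and 0.05, 0.04 and −0.10 in *Prdm16* SMKO mice. Control replicate 2 and *Prdm16* SMKO replicate 3 thus stood apart for the members by more than they did for all genes tested. Control replicate 3 was the lowest library over all genes tested, and its members' median of −0.13 lay above that level. Without control replicate 2, 21 of 38 members had a log2 fold change below 0 (33.5% of all genes tested), with a median of −0.05 against 0.11 over all genes tested. Without *Prdm16* SMKO replicate 3 there were 25 (39.5% of all genes tested), with a median of −0.07 against 0.06. With the other libraries left out, the number below 0 was 32 without control replicate 1 (44.8% of all genes tested), 34 without control replicate 3 (59.7%), 34 without *Prdm16* SMKO replicate 1 (51.6%) and 33 without *Prdm16* SMKO replicate 2 (50%).

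**Figure D2:**
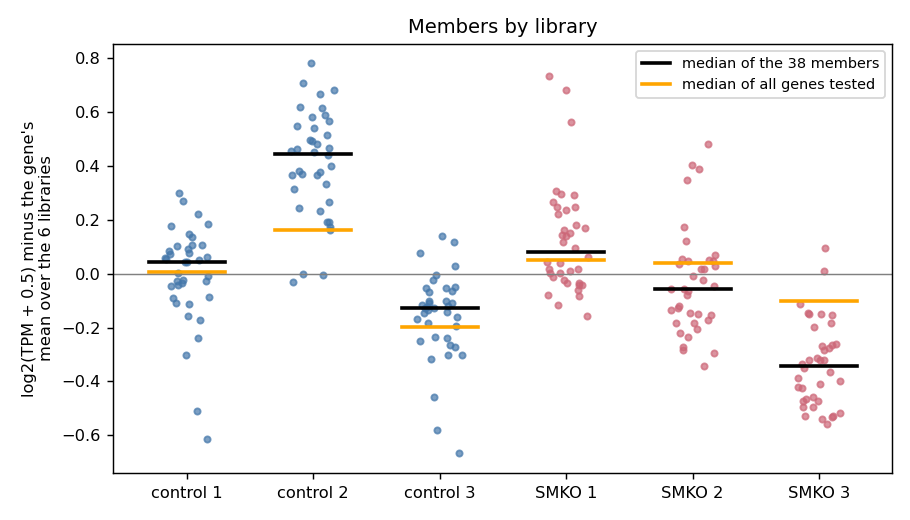
Each point is one of the 38 genes in one library, plotted as its log2(TPM + 0.5) minus that gene's mean over the 6 libraries (vertical axis), with black bars for the median of the 38 genes and orange bars for the median of all genes tested. Control replicate 2 is the highest library (median 0.44) and Prdm16 SMKO replicate 3 the lowest (−0.34), and the other 4 libraries lie between.

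Of the 8 genes of the filaments themselves, 7 were lower and 1 was higher after loss of *Prdm16*, and their median log2 fold change was −0.19. *Acta2*, the main actin of arterial smooth muscle, measured 7814, 13020 and 6975 TPM in the control libraries against 8100, 6282 and 5256 TPM in the *Prdm16* SMKO libraries, each given in the order of replicates 1, 2 and 3 here and for every gene that follows. *Myh11*, the smooth muscle myosin heavy chain, was at 1977, 3242 and 1691 TPM in control and 2507, 1799 and 1488 TPM in *Prdm16* SMKO mice. For both genes control replicate 2 was the highest library and the groups overlapped. The log2 fold change was −0.47 for *Acta2* (95% interval −1.12 to 0.18, adjusted p = 0.765 by limma) and −0.23 for *Myh11* (−0.88 to 0.42, adjusted p = 0.922). Without control replicate 2, *Acta2* was at −0.20 and *Myh11* at 0.04, so the direction of *Myh11* turned. The interval of *Acta2* is wide enough to hold both a large deficit and a small excess.

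*Actg2*, the γ-actin of visceral smooth muscle, which arteries hold at a lower level, was the member with the largest difference (ENSMUSG00000059430, chr6:83512905-83536265). Controls gave 92.5, 139 and 89.0 TPM, and *Prdm16* SMKO mice gave 236, 198 and 151 TPM. Every *Prdm16* SMKO library lay above every control library, and *Prdm16* SMKO replicate 1 was the highest. Means were 107 ± 27.8 TPM (SD, n = 3) for controls against 195 ± 42.6 TPM (SD, n = 3) for *Prdm16* SMKO mice, and the log2 fold change was 0.87 ± 0.23 (SE, 95% interval 0.36 to 1.39, limma adjusted p = 0.235). An exact two-sided permutation test gave p = 0.1, the smallest that 3 libraries against 3 allow. Leaving out any 1 library kept the log2 fold change between 0.72 and 1.08. Of all 151-base stretches in the annotated transcripts of *Actg2* and of *Acta2*, 0% occurred in a transcript of another gene, so whole reads of the 2 actins can be told apart. Among the 38 genes such stretches were shared with another gene in *Nexn* (3.02%), *Myl6* (1.41%) and *Rhoa* (0.515%) and in no other.

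*Lmod1*, leiomodin, which nucleates actin filaments in smooth muscle, was at 292, 353 and 223 TPM in control and 235, 215 and 175 TPM in *Prdm16* SMKO mice. The groups overlapped through control replicate 3, and the log2 fold change was −0.46 ± 0.20 (SE, limma adjusted p = 0.581). Without control replicate 2 it was −0.30. The tropomyosins *Tpm1* and *Tpm2*, which lie along the actin filament, were at log2 fold changes of −0.14 and −0.38. The light chains *Myl6* and *Myl9* were at −0.06 and −0.15, both with overlapping groups.

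The 5 thin-filament regulators were all lower, with the lowest median of the 6 role groups, −0.47. *Cnn1*, the calponin of differentiated smooth muscle that binds actin and slows the myosin ATPase, was at 1390, 2006 and 1407 TPM in control and 1371, 1088 and 965 TPM in *Prdm16* SMKO mice. *Cnn2*, a calponin found in many cell types, whose promoter holds one of the CArG boxes shown, was at 173, 205 and 152 TPM in control and 146.5, 134 and 102 TPM in *Prdm16* SMKO mice. Neither gene overlapped between the groups, although for *Cnn1* the gap between control replicate 1 and *Prdm16* SMKO replicate 1 was small. Their log2 fold changes were −0.48 ± 0.21 (SE, limma adjusted p = 0.571) and −0.47 ± 0.19 (SE, limma adjusted p = 0.502). Without control replicate 2, *Cnn1* was at −0.31.

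*Smtn*, smoothelin, a marker of contractile smooth muscle, was at 726, 905 and 541 TPM in control and 559, 520 and 408 TPM in *Prdm16* SMKO mice, with a log2 fold change of −0.53 ± 0.22 (SE, limma adjusted p = 0.540). *Tagln*, transgelin or SM22α, was at 4248, 5501 and 3892 TPM in control and 4558, 3424 and 3001 TPM in *Prdm16* SMKO mice, with a log2 fold change of −0.32 ± 0.23 (SE, limma adjusted p = 0.825). Both overlapped between the groups, and without control replicate 2 *Smtn* was at −0.35 and *Tagln* at −0.17. Without *Prdm16* SMKO replicates 1 or 3, *Tagln* was at −0.49 and −0.19. The library kit does not mark the strand, and genes on the opposite strand cover 67.9% of the exon bases of *Tagln* and 16.3% of those of *Smtn*, where reads of the 2 strands cannot be told apart. *Cald1*, caldesmon, which holds back the actomyosin ATPase, was at a log2 fold change of −0.12.

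**Figure D3:**
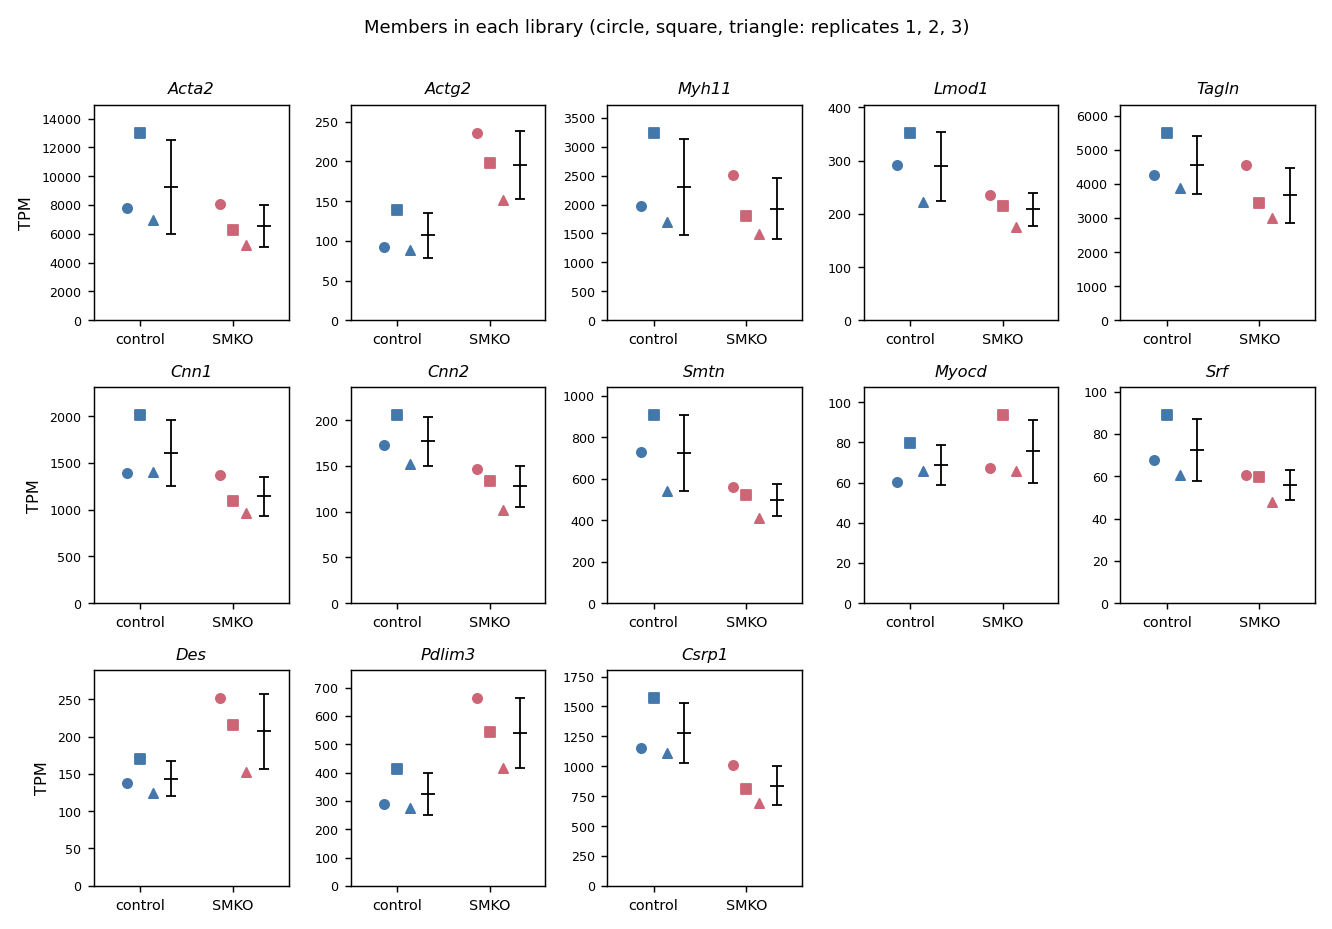
TPM of the 13 members given in full, 1 panel per gene with an axis from 0, in the 3 control libraries (blue) and the 3 Prdm16 SMKO libraries (red), with circles, squares and triangles for replicates 1, 2 and 3 and the mean with SD as a black bar. *Actg2* and *Pdlim3* show every red point above every blue point, *Csrp1*, *Cnn1*, *Cnn2* and *Srf* the reverse, and the other 7 genes overlap.

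The 7 genes of the switch between contraction and relaxation lay closest to 0, between −0.29 and 0.10 with a median of −0.05. *Mylk*, myosin light chain kinase, averaged 401 ± 99.4 TPM in controls against 429 ± 82.6 TPM in *Prdm16* SMKO mice (SD, n = 3), and its log2 fold change was 0.10 (95% interval −0.40 to 0.61, limma adjusted p = 0.967). The myosin phosphatase targeting subunits *Ppp1r12a* and *Ppp1r12b* were at 0.06 and −0.29, and the phosphatase inhibitor *Ppp1r14a*, or CPI-17, was at −0.15. *Rhoa*, *Rock1* and *Rock2*, the small GTPase and its kinases, were at −0.07, −0.05 and −0.04. The groups overlapped in all 7, and none had an unadjusted p under 0.05. The 95% interval of *Rock2* ran from −0.38 to 0.30, so a difference within that range remains possible.

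The 2 transcriptional regulators lay on opposite sides of 0, neither past the test. *Srf* was at 67.7, 88.8 and 60.7 TPM in control and 60.4, 59.6 and 47.7 TPM in *Prdm16* SMKO mice. *Myocd*, myocardin, was at 60.4, 79.8 and 65.7 TPM in control and 67.2, 93.5 and 65.9 TPM in *Prdm16* SMKO mice. *Srf* did not overlap between the groups, by a margin of less than 1 TPM, while *Myocd* overlapped and was highest in *Prdm16* SMKO replicate 2. Log2 fold changes were −0.36 ± 0.19 for *Srf* (SE, limma adjusted p = 0.683) and 0.13 ± 0.19 for *Myocd* (SE, limma adjusted p = 0.945). Without control replicate 2 the value for *Srf* was −0.20, and without *Prdm16* SMKO replicate 2 that for *Myocd* was −0.03. The 7 genes with a CArG box in the promoter windows were at log2 fold changes of −0.47 (*Cnn2*), −0.12 (*Filip1l*), −0.08 (*Ldb3*), −0.06 (*Myl6*), −0.15 (*Myl9*), −0.36 (*Srf*) and −0.47 (*Vcl*). All 7 were below 0, as were most of the other members, of which 6 had no window to search.

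The 9 genes of the intermediate filaments and of Z-band and dense-body proteins held 2 that were higher and 7 that were lower, from −0.61 to 0.73 with a median of −0.12. *Pdlim3*, or ALP, a PDZ and LIM protein that binds α-actinin (ENSMUSG00000031636, chr8:45885461-45919548), was at 290, 411 and 276 TPM in control and 663, 545 and 415 TPM in *Prdm16* SMKO mice. *Des*, desmin, the muscle intermediate filament, was at 138, 170 and 124 TPM in control and 251, 216 and 153 TPM in *Prdm16* SMKO mice. Every *Prdm16* SMKO library exceeded every control library for *Pdlim3*, by a narrow margin between control replicate 2 and *Prdm16* SMKO replicate 3, and for *Des* control replicate 2 lay above *Prdm16* SMKO replicate 3. The log2 fold change of *Pdlim3* was 0.73 ± 0.22 (SE, limma adjusted p = 0.353, exact two-sided permutation p = 0.1) and that of *Des* was 0.51 ± 0.21 (SE, limma adjusted p = 0.546). Left out in turn, single libraries moved *Pdlim3* between 0.57 and 0.91 and *Des* between 0.35 and 0.71.

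*Csrp1*, a LIM protein that binds α-actinin and zyxin (ENSMUSG00000026421, chr1:135720061-135752232), had the lowest log2 fold change of the 38 genes. It was at 1154, 1569 and 1109 TPM in control and 1013, 806 and 693 TPM in *Prdm16* SMKO mice. All 3 *Prdm16* SMKO libraries lay below all 3 control libraries, and the log2 fold change was −0.61 ± 0.21 (SE, limma adjusted p = 0.424, exact two-sided permutation p = 0.1). The other 6 genes of this group, *Sorbs2*, *Pdlim7*, *Nexn*, *Filip1l*, *Ldb3* and *Synpo2*, were at −0.39, −0.28, −0.27, −0.12, −0.08 and −0.07, and the groups overlapped in each.

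All 7 genes listed under actin-linked adhesions and cross-links, where *Dstn* was also placed, were lower, by a median of −0.29 (log2 fold change). The control and *Prdm16* SMKO libraries overlapped in each. *Vcl*, vinculin, was at 191, 289 and 174 TPM in control and 175, 162 and 126 TPM in *Prdm16* SMKO mice, and its log2 fold change was −0.47 ± 0.22 (SE, limma adjusted p = 0.625). The adjacent gene *Ap3m1* on the opposite strand covers 25.5% of its exon bases. *Actn1* (α-actinin), *Zyx* (zyxin), *Tns1* (tensin), *Dstn* (destrin, which severs actin filaments), *Flna* (filamin A) and *Tln1* (talin) were at −0.30, −0.29, −0.29, −0.26, −0.26 and −0.15.

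Because the members went up and down together between libraries, pairs of related genes were also set against each other within a library, where a factor common to both cancels. These pairs were chosen after their values were seen, so no test is given. For each 100 TPM of *Acta2* there were 1.18, 1.07 and 1.28 TPM of *Actg2* in control and 2.92, 3.15 and 2.88 TPM in *Prdm16* SMKO mice, with means of 1.18 ± 0.106 and 2.98 ± 0.149 (SD, n = 3), 2.54-fold apart. For each 100 TPM of *Pdlim7*, *Pdlim3* stood at 78.6, 89.4 and 94.9 TPM in control and at 193, 169 and 167 TPM in *Prdm16* SMKO mice. Control replicate 2 and *Prdm16* SMKO replicate 3, which stood apart in level, lay close to the other libraries of their groups in both ratios.

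Another LIM protein of the *Csrp1* family, *Csrp2*, is not one of the 38 genes. Per 100 TPM of *Csrp1* it stood at 113, 108 and 117 TPM in control and 209, 235 and 238 TPM in *Prdm16* SMKO mice. *Csrp2* itself was at a log2 fold change of 0.40 ± 0.18 (SE, limma adjusted p = 0.611) with overlapping groups. The non-muscle myosin heavy chain *Myh10* stood at 9.15, 7.27 and 9.002 TPM for each 100 TPM of *Myh11* in control and at 4.18, 5.62 and 6.03 TPM in *Prdm16* SMKO mice. None of the 4 ratios overlapped between the groups, but the pairs were chosen with their values known, so this count is no evidence.

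**Figure D4:**
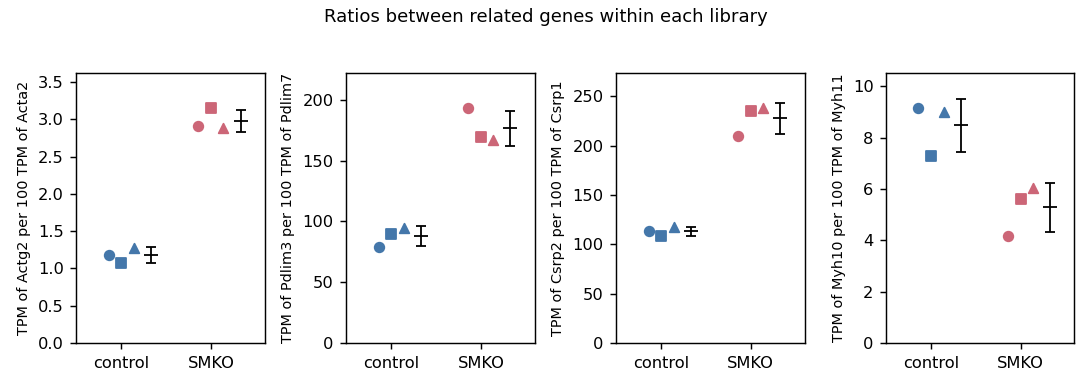
TPM of one gene per 100 TPM of a related gene in the same library (vertical axes, from 0), in control (blue) and Prdm16 SMKO (red), with circles, squares and triangles for replicates 1, 2 and 3 and the mean with SD as a black bar. The groups are apart in all 4 pairs, with *Actg2* per 100 TPM of *Acta2* at 1.07 to 1.28 in control and 2.88 to 3.15 in Prdm16 SMKO.

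With every library scaled so that the members' median was equal, an alternative added after the data were seen, *Actg2*, *Pdlim3* and *Des* passed the test, where 0.798% of all genes did. Their log2 fold changes were then 1.10 (adjusted p = 0.0118), 0.96 (adjusted p = 0.0165) and 0.73 (adjusted p = 0.0429) by limma with Benjamini-Hochberg adjustment. These values are relative to the 38 genes themselves, and this scaling moved the median of all genes to 0.23. With limma's array weights *Actg2* and *Pdlim3* were called (3.13% of all genes), and under no other alternative was a member called. The array weights were 10.1 for control replicate 1 and 0.41 to 0.95 for the other libraries, so that fit leaned mostly on control replicate 1. The adjusted p of *Actg2* ran from 0.0118 to 0.605, that of *Pdlim3* from 0.0165 to 0.749 and that of *Des* from 0.0429 to 0.913 over the 19 alternatives.

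A wider list of the same pathway held 118 other genes of the table, of which 108 were tested. Among these, 52 were higher and 56 lower, the median log2 fold change was −0.01, none was called by limma, and 10 had an unadjusted p under 0.05, 5 in each direction, near the 8.74% of all genes tested. The groups did not overlap in 6 that were higher and 6 that were lower, again near the share of all genes tested (12.8%). *Myh10*, the non-muscle myosin heavy chain of the previous ratio, was at 181, 236 and 152 TPM in control and 105, 101 and 89.7 TPM in *Prdm16* SMKO mice, with a log2 fold change of −0.92 ± 0.18 (SE, limma adjusted p = 0.0962). Its groups did not overlap. It was called with size factors, quantile normalization, array weights, scaling to the members and TPM without mitochondrial and 45S transcripts.

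*Ppp1r14c*, an inhibitor of protein phosphatase related to *Ppp1r14a*, was at 3.91, 4.09 and 3.88 TPM in control and 8.53, 7.53 and 7.06 TPM in *Prdm16* SMKO mice, with a log2 fold change of 0.88 ± 0.17 (SE, limma adjusted p = 0.0920). *Actc1*, cardiac α-actin, was at 0.83, 4.95 and 5.10 TPM in control and 7.11, 6.93 and 11.97 TPM in *Prdm16* SMKO mice, and *Tmsb10*, which binds actin monomers, was at a log2 fold change of 0.42 (limma adjusted p = 0.504). The groups did not overlap in these 3 genes, which like *Myh10* were named for their small unadjusted p, so this adds no support. *Ppp1r14c* was called under 4 of the alternatives and *Actc1* with array weights. The log2 fold change of *Actc1* was 1.37, and 2.515 with array weights. It fell to 0.69 without control replicate 1, the library at 0.83 TPM that held the largest array weight. On the lower side, *Mylk2*, the skeletal muscle myosin light chain kinase, *Synpo*, synaptopodin, and *Tagln2*, the transgelin of non-muscle cells, were at −0.96, −0.51 and −0.47 (limma adjusted p of 0.316, 0.455 and 0.515). *Mrtfa* and *Mrtfb*, SRF partners that sense actin monomers, were at 0.16 and 0.05 with overlapping groups. The cytoplasmic actins *Actb* and *Actg1* were at −0.42 and −0.32 with overlapping groups.

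**Figure D5:**
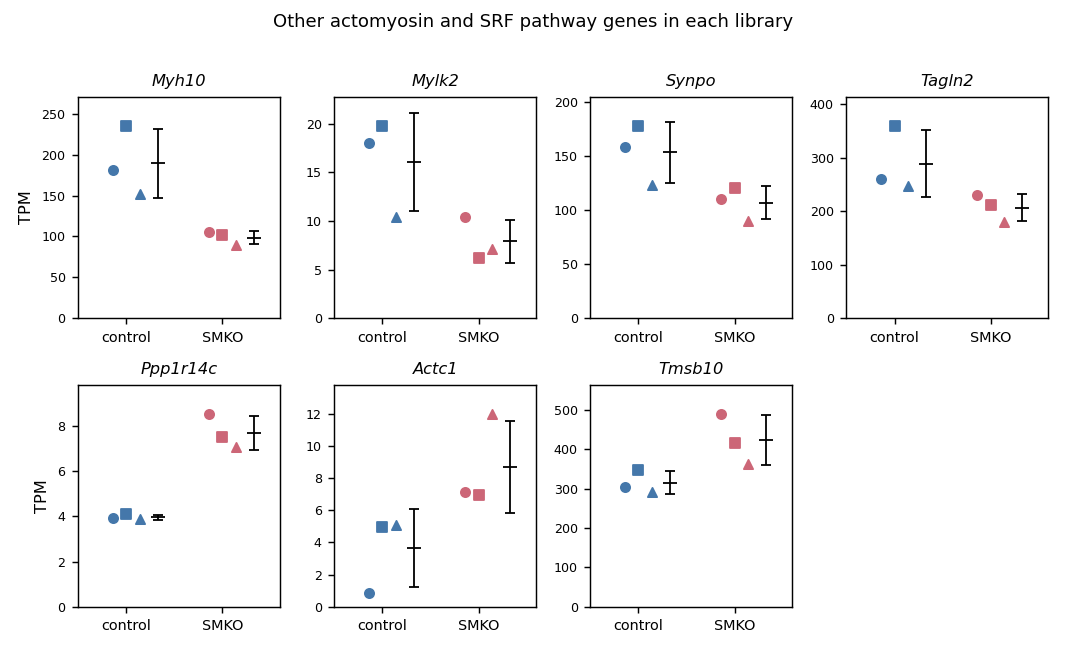
TPM of 7 genes of the wider pathway list among those with the smallest unadjusted p in each direction (vertical axes, from 0), in control (blue) and Prdm16 SMKO (red), with circles, squares and triangles for replicates 1, 2 and 3 and the mean with SD as a black bar. *Myh10* lies between 152 and 236 TPM in control and between 89.7 and 105 TPM in Prdm16 SMKO, and *Mylk2* is the one gene whose groups overlap.

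Markers of other cells were set beside these genes, and none of those tested was called by limma. The 9 macrophage markers were all higher in *Prdm16* SMKO mice, 5 of them at an unadjusted p under 0.05 (4.88% of all genes tested were higher at that threshold) with a smallest adjusted p of 0.380, and had a summed level of 46.6 to 71.9 TPM in control and 76.2 to 133.5 TPM in *Prdm16* SMKO libraries, and none was at 0. Of 8 endothelial markers 7 were higher, with sums of 233 to 311.5 TPM and 283 to 492 TPM. The 6 adipocyte markers were all higher and summed to 489 to 967 TPM and 479 to 2395 TPM. Their highest sum lay in *Prdm16* SMKO replicate 3, the library with the lowest members. Their lowest sums lay in *Prdm16* SMKO replicate 2 (479 TPM) and control replicate 3 (489 TPM), where the members' medians were also below 0. Of 9 fibroblast markers 8 were higher, with sums of 1875 to 2110 TPM and 1628 to 2939 TPM. The 8 neuron and Schwann cell markers were all higher and summed to 53.4 to 246 TPM and 94.5 to 637.5 TPM. Among them, *Th* and *Dbh* were at 0 in a library. The ranges of the 2 groups overlapped for all of these sums but that of the macrophage markers. Their part in the lower level of the members was not tested.

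*Des* and *Pdlim3*, which were higher, are also made in striated muscle. The 9 skeletal muscle markers summed to 8.81 to 20.6 TPM in control and to 101.5, 7.33 and 11.6 TPM in *Prdm16* SMKO replicates 1, 2 and 3, and *Myh4* and *Tnni2* were at 0 in a library. Without *Prdm16* SMKO replicate 1, the log2 fold changes were 0.72 for *Actg2*, 0.57 for *Pdlim3* and 0.35 for *Des*. The part of striated muscle in these differences was not tested. The 7 cardiomyocyte markers, which include *Actc1*, summed to 6.21 to 11.5 TPM in control and 11.6 to 18.5 TPM in *Prdm16* SMKO libraries, with *Myl2* and *Myl7* at 0 in a library. Brown adipocyte markers summed to 70.9 to 249 TPM and 12.7 to 671 TPM with *Ucp1* and *Elovl3* at 0 in a library, and lymphocyte markers to 0.18 to 4.08 TPM and 2.99 to 3.20 TPM with *Cd3d*, *Cd3e*, *Cd79a* and *Trac* at 0 in a library.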

How the data were processed

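Abdominal aorta RNA, in 3 control and 3 *Prdm16* SMKO libraries, was selected for polyadenylated transcripts, and the NEBNext Ultra kit used does not mark the strand. The authors deposited TPM values rounded to 2 decimals. The submitters' processing notes list bcl2fastq, cutadapt 2.3, FastQC 0.11.8, STAR 2.7.8a, RSEM 1.3.3, MultiQC 1.7 and GRCm38, and the annotation and filters are not given in the sources used here. Libraries were assigned by their titles, and no pair was identical. Genes averaging 0.5 TPM or more over the 6 libraries (15775) were fitted on the log2(TPM + 0.5) scale with limma 3.58.1 (R 4.3.3) and a variance trend, with two-sided p-values and Benjamini-Hochberg adjustment over all of them. The fit was tested on simulated data. Fold changes on this scale understate changes of low genes. Single genes also had an exact permutation test. Positions are from GENCODE M21 and promoters from RefSeq. Tables were made with Python 3.11.15, pandas 2.3.3 and scipy 1.17.1.

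The members and the pathway and marker lists were chosen with earlier results of these data known. Values in full are given for members with an unadjusted p under 0.05 or groups that did not overlap and for *Acta2*, *Myh11*, *Tagln*, *Cnn1*, *Smtn*, *Myocd*, *Srf* and *Lmod1*, and from the pathway list the 4 genes of smallest unadjusted p in each direction are named, except 1 that is not reported here. *Csrp2*, *Mrtfa*, *Mrtfb*, *Actb*, *Actg1* and the 4 ratios were chosen after their values were seen. Of the pathway list, 2 of 120 symbols were older names of genes already on it. The fit was repeated with pseudocounts of 0.1 or 1, without the expression minimum or with one of 2 TPM, and with median-of-ratios size factors, quantile normalization, TPM rescaled without mitochondrial genes or without these and 45S transcripts, no variance trend, robust moderation, array weights, a replicate block and each library left out.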

Additional observations from a re-analysis of the deposited data

How the results depend on the processing

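There were 18 alternatives and 1 added after the data were seen. Members passed the test with array weights (2, against 3.13% of all genes tested). With the added scaling to the members' median 3 passed (0.798% of all genes tested), and none passed under any other. The array weights put far more weight on control replicate 1 than on any other library. The number of all genes called, 56, was 494 with array weights, 153 with size factors, 129 with quantile normalization, 126 with scaling to the members, 123 without mitochondrial and 45S transcripts, 112 with robust moderation, 33 without a variance trend and 10 with no expression minimum, and 5 to 61 with each library left out. The pathway list had 108 genes tested in the main fit. Of these, 5 were called with array weights (3.13% of all genes tested) and 3 with size factors (0.971%). There were 3 without mitochondrial and 45S transcripts (0.693%) and 3 with scaling to the members (0.798%). Quantile normalization called 2 (0.818%) and robust moderation 1 (0.71%). With the replicate number as a block, 4 genes and no member were called. Same-numbered libraries deviated with correlations of −0.131, −0.11 and 0.0188, so the numbers gave no pairing. With each library left out, *Myh11* ran from −0.44 to 0.045, above 0 without control replicate 2, and *Myocd* from −0.034 to 0.24, below 0 without *Prdm16* SMKO replicate 2. Over the 18 alternatives, the members' median log2 fold change stayed between −0.35 and −0.05. The added scaling sets the members' median equal in every library, and there it was −0.02. Members whose groups did not overlap numbered 6 with TPM as deposited (12.8% of all genes tested), 17 with size factors (19.7%, 14 of them lower), 13 without mitochondrial and 45S transcripts (18.6%, 10 lower) and 2 without mitochondrial genes (12.7%, none lower). At an unadjusted p under 0.05 there were 3 to 15 members, 3 without control replicate 2 (7.48% of all genes tested), 8 with array weights (20.1%) and 15 with size factors (13.7%). The cause of these differences was not tested. Depth is unknown, and 3 libraries a group limit what could be called.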
